A study of Mus musculus with 6 samples.

Results

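Transcripts of the small MAF factors (Maff, Mafg and Mafk), of the transcription factor NRF2 (encoded by Nfe2l2) and of 6 NRF2 target genes (Hmox1, Nqo1, Gclc, Gclm, Txnrd1 and Srxn1) were examined in lung endothelial cells (ECs). The set holds 10 of the 47729 genes counted, each found by its Ensembl identifier. It was chosen from the low Maff level measured in these same KO libraries, and the other 9 genes were added for their place in the pathway. The values of Maff are therefore given as a description, with no test. The other genes were read from the fit over all genes.

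RNA was sequenced from 3 libraries of wild-type mice (WT) and 3 of mice lacking the leene region (KO). Leene is the putative mouse counterpart of the human long noncoding RNA LEENE, and its region was deleted in every tissue with CRISPR-Cas9 on the C57BL6 background. All mice, WT included, were males aged 14 weeks that received Angiotensin II (AngII), a peptide that raises blood pressure, at 1000 ng/kg/min for 2 weeks from an osmotic pump, so no library without AngII was compared. The counts do not cover leene itself, which has no entry in the annotation used, so the deletion was not checked here. The labels describe CD31-enriched cells pooled from 3 mice in each group, whereas the methods name CD144. It is not stated whether the libraries of a group came from separate mice, so the p-values may measure technical spread only.

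NRF2 is a CNC-type basic leucine zipper factor that protects cells from oxidants and electrophiles. KEAP1 holds it in a complex that leads to its breakdown, and oxidation of KEAP1 lets it accumulate, so that its activity is set largely at the protein level. In the nucleus NRF2 binds DNA only as a dimer with a small MAF factor, at the antioxidant response element (ARE). The small MAFs have no activation domain of their own, and their dimers with each other or with BACH1 can repress the same sites. In endothelium the pathway is known for induction of heme oxygenase and glutathione enzymes, and small MAF genes are themselves inducible by stress.

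Sequences just upstream of transcription starts are shown for the 4 factor genes, since their levels are compared most closely here, and for Gclm and Srxn1 among the targets. They come from RefSeq on GRCm38.p6, which held windows of 250 bases before to 50 bases after a start for 8 of the 10 genes, and each is written 5′ to 3′ on the strand of the gene. Capitals mark a match to the ARE core TGACNNNGC, the cAMP response element TGACGTCA or the TPA response element TGANTCA, searched on both strands.
Maff, first start (chr15:79346484-79346542, plus strand): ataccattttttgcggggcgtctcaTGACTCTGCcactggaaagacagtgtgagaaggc
Maff, second start (chr15:79347466-79347519, plus strand): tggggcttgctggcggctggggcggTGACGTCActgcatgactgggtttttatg
Mafg (chr11:120633736-120633794, minus strand): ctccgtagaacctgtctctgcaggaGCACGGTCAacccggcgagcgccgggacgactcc
Mafk (chr5:139791498-139791535, plus strand): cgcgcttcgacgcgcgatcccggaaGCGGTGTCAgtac
Nfe2l2 (chr2:75704870-75704913, minus strand): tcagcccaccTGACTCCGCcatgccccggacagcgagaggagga
Gclm (chr3:122245398-122245456, plus strand): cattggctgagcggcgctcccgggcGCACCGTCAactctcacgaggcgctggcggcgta
Srxn1 (chr2:152105412-152105495, plus strand): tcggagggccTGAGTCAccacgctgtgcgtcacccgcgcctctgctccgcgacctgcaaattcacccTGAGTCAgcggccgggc

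The ARE core was found 112 bases upstream of the first Maff start, 222 upstream of Mafg, 13 upstream of Mafk, 240 upstream of Nfe2l2, 134 upstream of Gclm, 92 upstream of the second Txnrd1 start and 28 bases downstream of the Srxn1 start. In all, 7 of the 12 windows of these genes held it, against 12.4% of the 32851 windows in the table. The cAMP response element was found in 1 window, 29 bases upstream of the second Maff start (1.79% of all windows). The TPA response element lay in the Srxn1 window only, 102 and 45 bases upstream (7.81% of all windows). Neither match overlapped the ARE core in the form searched, TGACNNNGC. The match 45 bases upstream reads on as TGAGTCAGC, which differs from that form only in G for C after TGA. It is thus not shown to be separate from an ARE. The longer MAF recognition element was found in none of the 12 (0.00609% of all windows). The counted gene model of Maff begins at 79347541 and the first RefSeq start lies at 79346621, so the counts cannot tell which start was used.

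Total counts per library ran from 24464324 to 35184063, and 14625 genes passed the filter on low counts, all 10 members among them. All 10 EC markers examined were detected, with a summed level of 2008 to 3460 CPM (CPM sets each count against the scaled total of its library) in WT and 2260 to 3593 CPM in KO. Other lung cells were present as well. For club cells the summed level of 3 markers was 15350 to 40400 CPM in WT and 33560 to 56770 CPM in KO. It exceeded the EC sum in every library, as did the alveolar type II sum. The summed level of 5 alveolar type II markers was 4934, 46390 and 14400 CPM in WT replicates 1, 2 and 3 and 36570 to 44950 CPM in KO, so that WT replicate 2 resembled the KO libraries. The sum of 9 macrophage markers was 126, 340.5 and 298.9 CPM in WT and 421, 174 and 186 CPM in KO, and that of 5 B cell markers was 6.46 to 16.4 CPM in WT and 59.2 to 65.3 CPM in KO. None of the markers was at 0 in all libraries.

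Maff (chromosome 15, 79347541 to 79359072, GRCm38) gave 50.5, 52.8 and 47.1 CPM in WT libraries 1 to 3, against 18.7, 17.8 and 21.8 CPM in KO libraries 1 to 3. The groups were far apart, and the libraries within each were close together. The WT mean was 50.15 ± 2.83 CPM and the KO mean 19.4 ± 2.09 CPM (each SD, n = 3). The fitted level was 2.58-fold lower in KO, or -1.37 on the log2 scale. The counts behind these levels were 1007 to 2064 in WT and 434 to 631 in KO. WT replicate 2, which carried as much alveolar type II RNA as any KO library, had the highest Maff level. The log2 fold change was -1.37 without that library and -1.39 with the alveolar type II level as a covariate. The part of alveolar type II RNA in these values was not tested. In bulk RNA, fewer cells that express a gene and less of its RNA per cell cannot be told apart.

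Mafg and Mafk, the other small MAFs, are close relatives of Maff that form the same dimers. Mafg (chromosome 11, 120625117 to 120633600) gave 38.2, 41.1 and 42.1 CPM in WT against 29.5, 29.8 and 32.8 CPM in KO. Mafk (chromosome 5, 139791513 to 139802653) gave 118, 100.3 and 112 CPM in WT against 85.4, 67.5 and 83.3 CPM in KO. For both genes every KO library lay below every WT library.

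The log2 fold change was -0.40 (standard error 0.12) for Mafg and -0.48 (standard error 0.15) for Mafk. Their adjusted p-values were 0.351 and 0.367 (quasi-likelihood test of edgeR, adjusted after Benjamini and Hochberg over all genes tested), so neither passed the threshold of 0.05. The 95% intervals of the KO to WT ratio, without correction for the number of genes, were 0.630 to 0.914 for Mafg and 0.562 to 0.909 for Mafk.

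**Figure D1:**
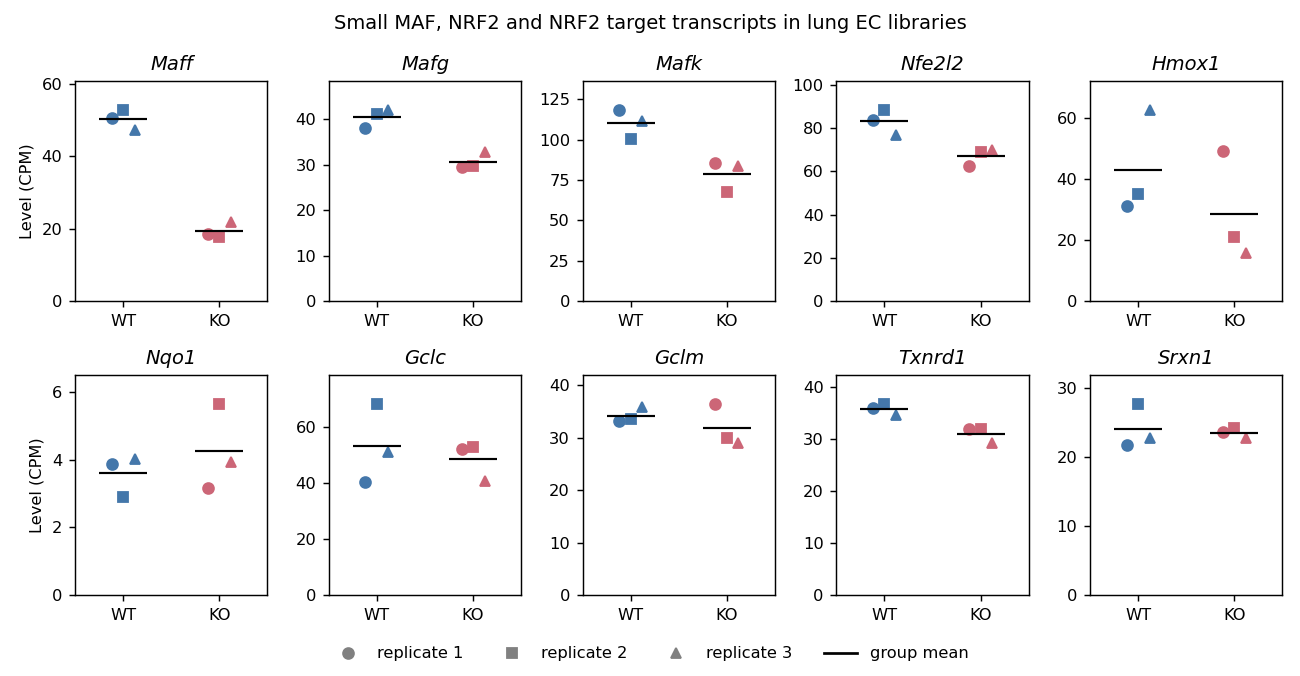
Level of each of the 10 transcripts in CPM (vertical axis, from 0) in the 3 WT (blue) and 3 KO (red) libraries, with marker shapes for replicates and a line for the group mean. Maff lies at 47.1 to 52.8 CPM in WT and 17.8 to 21.8 CPM in KO, whereas the groups overlap for Hmox1, Nqo1, Gclc, Gclm and Srxn1.

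Because the 3 small MAFs share partners, their levels were also compared per length of exon (CPM per kb), to set genes against each other. The length takes in all counted exons of a gene and not the form expressed, so shares and orders between genes are approximate. Their summed level was 61.0, 57.9 and 58.4 CPM per kb in WT replicates 1, 2 and 3 and 35.9, 31.0 and 37.5 CPM per kb in KO replicates 1, 2 and 3. Maff held 39.1%, 43.0% and 38.1% of this sum in WT and 24.5%, 27.1% and 27.4% in KO. Mafk held 44.4% to 49.8% in WT and 55.8% to 60.9% in KO, so that Mafk exceeded Maff in every library and the distance was wider in KO. Mafg was the smallest part throughout, at 11.1% to 12.8% in WT and 14.6% to 17.1% in KO. Since the sum contains Maff, it carries the difference by which the set was chosen, and no test was made.

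**Figure D2:**
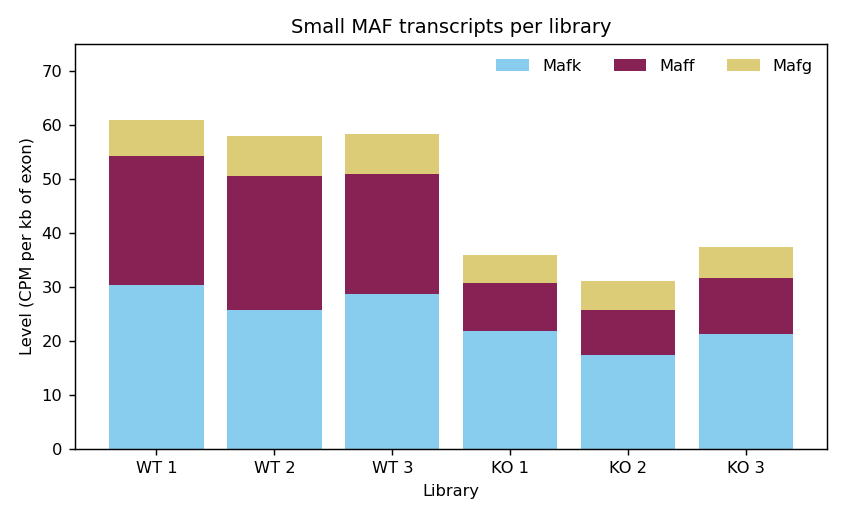
Stacked level of Mafk, Maff and Mafg transcripts in CPM per kb of exon (vertical axis, from 0) for each of the 6 libraries (horizontal axis). The stacks reach 57.9 to 61.0 in WT and 31.0 to 37.5 in KO, and Mafk is the largest segment in each.

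Nfe2l2 itself (chromosome 2, 75675513 to 75704641) gave 83.7, 88.5 and 77.0 CPM in WT against 62.5, 68.9 and 70.1 CPM in KO. The groups did not overlap, but the closest libraries, WT replicate 3 and KO replicate 3, were near each other. Its log2 fold change of -0.31 (standard error 0.13) did not pass (adjusted p = 0.474, edgeR's quasi-likelihood test), and the 95% interval of the ratio ran from 0.661 to 0.989. Per length, Nfe2l2 stood at 0.347 to 0.402 of the summed small MAF level in WT and at 0.458 to 0.585 in KO. That sum contains Maff, so this ratio also carries the difference by which the set was chosen. It was not tested and does not show a rise of Nfe2l2, whose own level was lower in KO.

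Of the 9 genes other than Maff, 0 passed an adjusted p of 0.05 in edgeR's quasi-likelihood test, where 0.109% of all genes tested did, and 0 passed in DESeq2, where 1.21% of the genes given an adjusted p did. At an unadjusted p under 0.05, 3 were lower in KO (Mafg, Mafk and Nfe2l2), against 4.68% of all genes tested. The groups did not overlap, with KO lower, for 4 of the 9 (these 3 and Txnrd1), against 9.2% of all genes, and KO was higher without overlap for 0 of the 9, against 8.59%. The median log2 fold change was -0.21 over the 9 and 0.03 over all genes tested.

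The 6 NRF2 targets were ordered by what they make. Gclc and Gclm encode the catalytic and modifier subunits of glutamate-cysteine ligase, the first enzyme of glutathione synthesis. Gclc (chromosome 9, 77754535 to 77794485) gave 40.3, 68.3 and 51.0 CPM in WT against 52.3, 52.9 and 40.6 CPM in KO. Gclm (chromosome 3, 122245557 to 122270732) gave 33.1, 33.6 and 35.9 CPM in WT against 36.5, 30.0 and 28.9 CPM in KO. The groups overlapped for both subunits. The ratio of KO to WT was 0.913 for Gclc (95% interval 0.650 to 1.28) and 0.930 for Gclm (0.751 to 1.152), with adjusted p-values of 0.830 and 0.781 in the same quasi-likelihood test of edgeR.

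Txnrd1 encodes the cytosolic thioredoxin reductase, and Srxn1 encodes sulfiredoxin, which repairs overoxidized peroxiredoxins. Txnrd1 (chromosome 10, 82859206 to 82897724) gave 35.9, 36.7 and 34.5 CPM in WT against 31.8, 31.9 and 29.2 CPM in KO. Srxn1 (chromosome 2, 152105516 to 152111376) gave 21.9, 27.8 and 22.85 CPM in WT against 23.6, 24.2 and 22.8 CPM in KO. Every KO library was below every WT library for Txnrd1, by a small margin, while the Srxn1 libraries were mixed. The ratio was 0.867 for Txnrd1 (95% interval 0.724 to 1.04, adjusted p = 0.553 in edgeR's test) and 0.9745 for Srxn1 (0.785 to 1.21, adjusted p = 0.934).

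Nqo1 (chromosome 8, 107388225 to 107403206), the quinone reductase often used as a readout of NRF2 activity, was the lowest of the set. It gave 3.87, 2.91 and 4.03 CPM in WT against 3.18, 5.665 and 3.93 CPM in KO, from 74 to 158 counts per library. The highest and the second lowest library both belonged to KO. Its ratio of 1.19 had a wide interval, from 0.767 to 1.84 (adjusted p = 0.749, edgeR's quasi-likelihood test).

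Hmox1 (chromosome 8, 75093591 to 75100596), which encodes the inducible heme oxygenase, varied most between libraries of the same group. Hmox1 gave 31.2, 35.2 and 62.7 CPM in WT libraries 1 to 3, against 49.1, 21.1 and 15.9 CPM in KO libraries 1 to 3. WT replicate 3 and KO replicate 1 were thus high and KO replicate 3 low. The ratio of KO to WT was 0.667 with a 95% interval of 0.328 to 1.36 (adjusted p = 0.643, edgeR's quasi-likelihood test). The log2 fold change of -0.58 became -1.24 without KO replicate 1 and -0.23 without WT replicate 3.

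Macrophages recycle heme and are a known site of Hmox1 expression, so their markers were set beside it, with Ftl1 as an iron gene. Marco, a scavenger receptor of alveolar macrophages, gave 6.46, 9.16 and 22.2 CPM in WT against 14.7, 5.81 and 3.59 CPM in KO. Ftl1, the ferritin light chain, is counted here as an NRF2 target and not as a macrophage marker. It gave 159.6, 156 and 289 CPM in WT against 316, 156 and 105 CPM in KO. WT replicate 3 and KO replicate 1 were the highest libraries for Hmox1, Marco and Ftl1 alike, and KO replicate 3 was the lowest. The mitochondrial share of counts was also highest in WT replicate 3 (54.5%) and KO replicate 1 (46.2%), against 37.4% to 40.4% elsewhere. Its link to these levels was not tested. Of the other macrophage markers, Cd68, Adgre1, Mrc1 and C1qa were also highest in WT replicate 3 and KO replicate 1, but were lowest in WT replicate 1. The rest of the list did not have these as its highest libraries. No other marker of the list combined these highest libraries with a lowest level in KO replicate 3. Over the whole macrophage list, 5 of 9 markers had a positive log2 fold change and 0 passed the test. The summed level was 126 to 340.5 CPM in WT and 174 to 421 CPM in KO. In WT replicate 2 that sum was 340.5 CPM with Hmox1 at 35.2 CPM. Marco, Ftl1, Cd68, Adgre1, Mrc1 and C1qa were picked after their values were seen, and the part of macrophage RNA in the Hmox1 values was not tested.

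**Figure D3:**
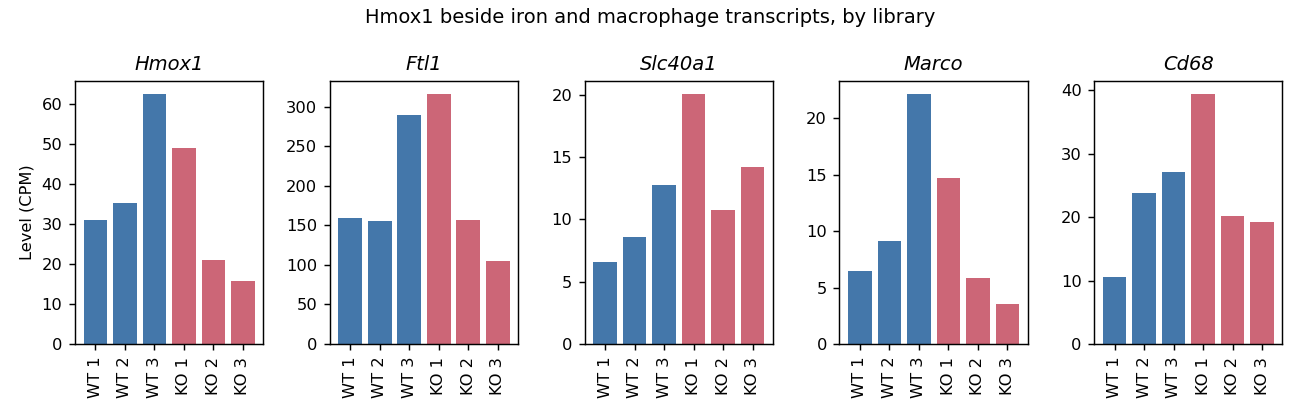
Level of Hmox1, Ftl1, Slc40a1, Marco and Cd68 in CPM (vertical axes, from 0) in the 3 WT (blue) and 3 KO (red) libraries. Hmox1, Ftl1, Marco and Cd68 are highest in WT 3 and KO 1. Hmox1, Ftl1 and Marco are lowest in KO 3, while Slc40a1 and Cd68 are lowest in WT 1.

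Levels of the 10 genes were ordered per length of exon. In WT the mean level was 28.2 ± 2.35 CPM per kb for Mafk, followed by Maff (23.7 ± 1.33), Nfe2l2 (21.9 ± 1.52), Hmox1 (19.9 ± 7.94), Gclc (15.6 ± 4.13), Txnrd1 (10.45 ± 0.336), Srxn1 (8.57 ± 1.13), Mafg (7.21 ± 0.362), Gclm (5.43 ± 0.240) and Nqo1 (2.32 ± 0.390), all in CPM per kb (SD, n = 3). The ranges of Maff and Nfe2l2, of Nfe2l2 and Hmox1, and of Hmox1 and Gclc overlapped, and all other neighbors were apart. In KO the order was Mafk, Nfe2l2, Gclc, Hmox1, Maff, Txnrd1, Srxn1, Mafg, Gclm and Nqo1, so that Maff went from rank 2 to rank 5. Of these neighbors, Nfe2l2 and Gclc, Srxn1 and Mafg, and Gclm and Nqo1 were apart and all others overlapped. Maff was at 9.16 ± 0.984 CPM per kb in KO.

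The other factors and proteins of the pathway were taken as a list of 14 genes, of which 12 passed the filter on low counts. Among CNC factors, Nfe2l1, a relative of NRF2 that controls proteasome genes, was the most abundant at 267 to 305 CPM in WT and 287 to 306 CPM in KO. Bach1, the heme-sensitive repressor that competes with NRF2 for small MAFs, gave 39.5, 36.2 and 29.6 CPM in WT against 39.3, 32.4 and 37.6 CPM in KO, with overlapping groups and a difference of 0.05 on the log2 scale (standard error 0.15). Bach2, a relative known from B cells, was at 8.72 to 12.1 CPM in WT and 7.43 to 10.9 CPM in KO. Keap1, Cul3 and Rbx1, which form the ligase that marks NRF2 for breakdown, had log2 fold changes of 0.01, -0.08 and -0.15 (only for Rbx1 were the groups apart), and Btrc and Sqstm1, which act on NRF2 or KEAP1 by other routes, had 0.13 and -0.03. None of these 8 genes passed (the lowest adjusted p was 0.638, edgeR's quasi-likelihood test).

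Nfe2l3, another CNC factor that pairs with small MAFs, stood apart from this list. It gave 4.75, 7.69 and 5.95 CPM in WT against 14.5, 21.6 and 12.8 CPM in KO, so that the groups were apart with KO higher. The log2 fold change was 1.41 (standard error 0.26), with an adjusted p of 0.153 in edgeR's quasi-likelihood test and 0.000629 in DESeq2. The summed B cell markers, 3 of 5 of which passed as higher in KO, stood at 59.2 to 65.3 CPM in KO and 6.46 to 16.4 CPM in WT, and its part in the Nfe2l3 level was not tested. Nfe2, the CNC factor of platelets and red cells, was at 2.76 to 3.93 CPM in WT and 3.76 to 7.21 CPM in KO (log2 fold change 0.78, standard error 0.28, adjusted p = 0.430 in edgeR's test), beside a summed level of 4 platelet markers of 26.2 to 40.2 CPM in WT and 37.4 to 72.3 CPM in KO. Over the list, 0 of 12 passed in edgeR (0.109% of all genes) and 1 in DESeq2 (1.21%), 2 had an unadjusted p under 0.05 (10.3% of all genes tested), and the median log2 fold change was 0.06.

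**Figure D4:**
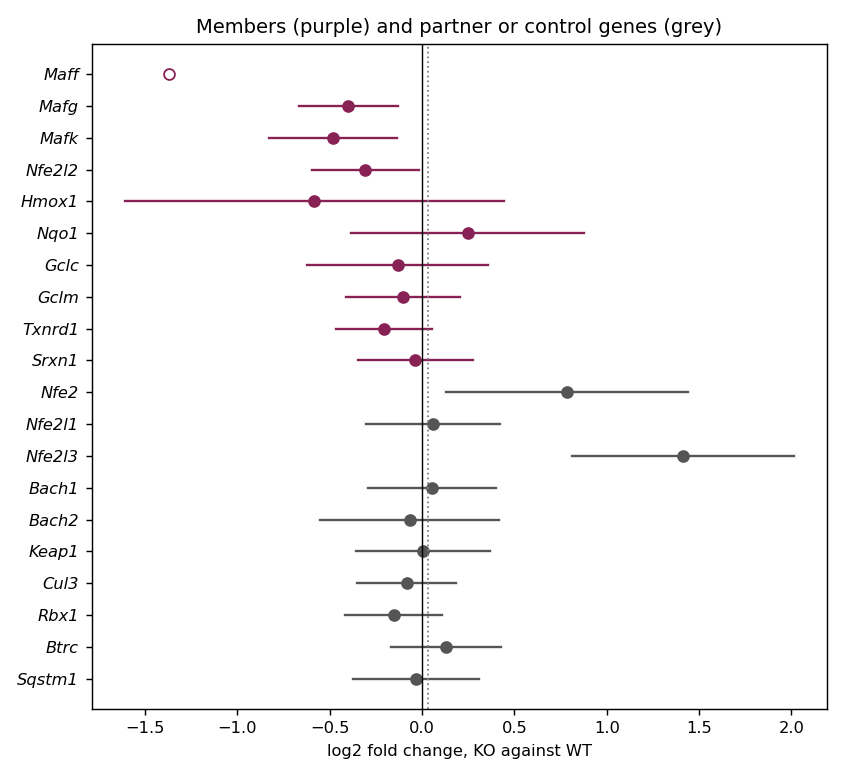
Log2 fold change of KO against WT (horizontal axis) for the 10 members in purple and 10 genes in grey (CNC factors and genes of NRF2 turnover), with uncorrected 95% intervals from edgeR's quasi-likelihood fit. Maff is an open point without an interval because it was chosen by this value (-1.37), and the dotted line is the median of all genes tested (0.03).

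A wider list of 48 NRF2 targets was then read from the same fit, and 44 of them passed the filter on low counts. Of these, 20 had a negative and 24 a positive log2 fold change, with a median of 0.04 against 0.03 over all genes tested. In edgeR's quasi-likelihood test 0 of the 44 passed, as in DESeq2, against 0.109% and 1.21% of all genes, and 3 had an unadjusted p under 0.05 (1 lower and 2 higher in KO), against 10.3%. The groups were apart for 2 of the 44 with KO lower and for 2 with KO higher, against 9.2% and 8.59% of all genes tested, so these shares were not above the background. Reads of Fth1, Ftl1, Txn1, Prdx1 and the Gsta and Gstm genes can align to close copies or pseudogenes and were then not counted, so their levels are uncertain.

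By role, the 13 glutathione genes had a median log2 fold change of 0.07 and ran from Slc7a11, the cystine importer (-0.43), to Mgst1, a membrane-bound glutathione transferase (0.81). All 4 genes of the thioredoxin and peroxiredoxin group had negative values, from -0.40 for Prdx6 and -0.21 for Prdx1, which break down peroxides, to -0.05 for Sesn2, and each had overlapping groups. Among all genes tested, 6714 of 14625 had a negative value. In edgeR's quasi-likelihood test 0 of the 4 had an unadjusted p under 0.05. The 6 genes that supply NADPH had a median of -0.04, with G6pdx, the first enzyme of the pentose phosphate pathway, at 23.3 to 27.5 CPM in WT and 17.2 to 22.8 CPM in KO (log2 fold change -0.30, standard error 0.15, adjusted p = 0.516 in edgeR's test). Tkt, the transketolase of that pathway, gave 49.3 to 63.8 CPM in WT and 57.6 to 71.0 CPM in KO (log2 fold change 0.18, standard error 0.15, adjusted p = 0.673 in edgeR's test). The 7 genes of heme and iron had a median of 0.01, with Blvra, the biliverdin reductase that follows heme oxygenase, at -0.33 and the iron exporter Slc40a1 at 0.70.

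The 11 genes of detoxification and transport had a median of 0.19. Ephx1, the microsomal epoxide hydrolase, gave 128, 343 and 119.5 CPM in WT against 251, 449.7 and 316 CPM in KO. The exporter Abcc3 was at 34.8, 82.7 and 30.4 CPM in WT and 67.9 to 100.6 CPM in KO, and Mgst1 was at 167, 558 and 231 CPM in WT and 490.1 to 688 CPM in KO. In all 3 genes WT replicate 2 lay within the KO range (for the summed alveolar type II markers it lay above it), and the adjusted p-values were 0.561, 0.564 and 0.553 in edgeR's test. Without WT replicate 2 these 3 genes passed as higher in KO, with adjusted p-values of 0.0326, 0.0282 and 0.0284 (edgeR's test), but without that library 4.41% of all genes tested also passed as higher. The part of epithelial RNA in these levels was not tested.

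Outside these groups, Pir and Trim16 had differences of opposite sign, each with groups that did not overlap. Pir, an iron-binding nuclear protein, gave 14.0, 12.5 and 13.2 CPM in WT against 18.3, 18.4 and 17.6 CPM in KO (log2 fold change 0.45, standard error 0.12). Trim16 gave 71.8, 56.6 and 69.5 CPM in WT against 48.5, 40.6 and 55.6 CPM in KO (-0.45, standard error 0.16). Neither passed the test, at adjusted p-values of 0.313 and 0.431 (edgeR's quasi-likelihood test).

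**Figure D5:**
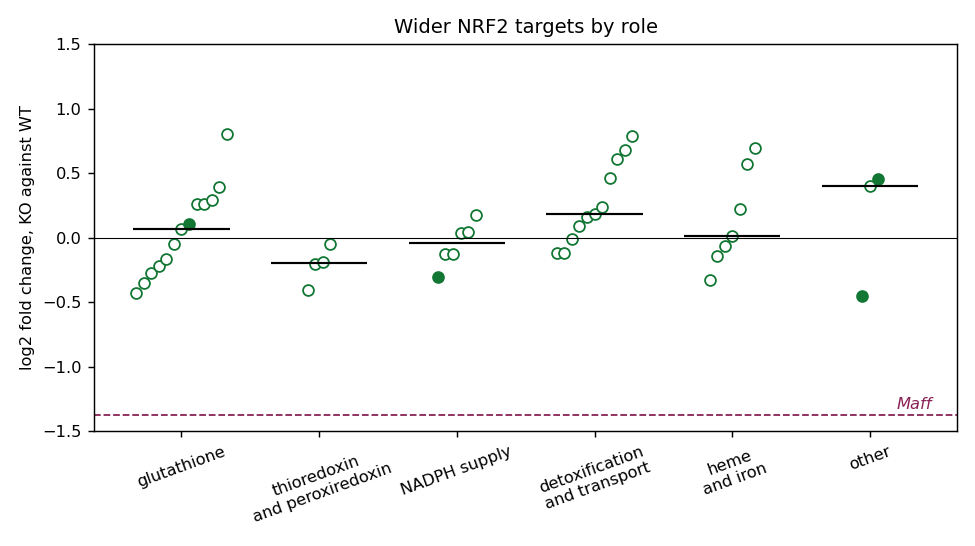
Log2 fold change of KO against WT (vertical axis) for the 44 wider NRF2 targets tested, by role, with filled points where the WT and KO libraries did not overlap, black lines for the medians and a dashed line for Maff. The points lie between -0.45 and 0.81, and the line stands at -1.37, the value by which Maff was chosen.

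Genes with a profile like that of Maff over the 6 libraries were found by the root mean square difference between log2 CPM values, each gene centered on its own mean, among 11627 genes with a mean log2 CPM above 1. The closest were Ahsa2 (0.13), Tsc22d3 (0.15), Stip1 (0.17), Klf2 (0.17) and Csrnp1 (0.18), in log2 units, where the median over all genes compared was 0.73. Ahsa2 and Stip1 encode cochaperones of HSP90, Tsc22d3 a glucocorticoid-induced leucine zipper protein, Klf2 a flow-responsive endothelial factor and Csrnp1 a nuclear protein. Of the other members, Mafk was the closest at 0.46 (rank 263), then Mafg at 0.49 (rank 408) and Nfe2l2 at 0.54 (rank 760), and Nqo1 was the farthest at 0.86 (rank 8496). These ranks are a description, since likeness was measured against the Maff values by which the set was chosen, and the measure takes in each gene's own difference between WT and KO.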

How the data were processed

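The authors deposited raw counts per gene, 1 table per library. Per the file headers and the submitters' processing notes, reads were aligned with STAR 2.5.4b to mm10 and uniquely aligned reads were counted by featureCounts 2.0.0 over exons of the Ensembl release 84 annotation of GRCm38, in the reverse orientation of the stranded kit. At the default settings, reads that overlapped several genes on the same strand were dropped. This affects 124 of 5613 exon bases of Mafg and 244 of 6291 of Gclm. Symbols from GENCODE's annotation of the same build matched 47224 of 47729 identifiers.

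Counts were tested in R 4.3.3 with edgeR 4.0.16 (filterByExpr, TMM scaling, glmQLFit and glmQLFTest with default options, genotype as the only term), with Benjamini-Hochberg adjustment over the 14625 genes tested. DESeq2 1.42.0, limma-voom (limma 3.58.1), other scalings, filters, a block, a covariate and each library left out were alternatives. CPM values use TMM-scaled library sizes. Total counts of 24464324 to 35184063 leave genes of a few CPM with about 100 counts per library. Counting error then adds to the spread between libraries.

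The members, lists and rules were chosen with earlier results of these data known. Genes named are the members, all CNC factors and turnover genes, and the 2 with the largest absolute log2 fold change of each role above 1 CPM. Sesn2, Marco, Ftl1, Cd68, Adgre1, Mrc1 and C1qa were named after their values were seen. The large MAF genes of the partner list were counted with it and are not reported singly here. Markers of erythroid cells, fibroblasts, neutrophils and club cells gave summed levels of 61.3 to 100.4, 309.5 to 699, 22.2 to 58.3 and 15350 to 40400 CPM in WT and 65.7 to 102, 472 to 672, 26.7 to 31.1 and 33560 to 56770 CPM in KO. Libraries of a group differed by more than counting noise, so none was treated as a library deposited more than once.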

Additional observations from a re-analysis of the deposited data

How the results depend on the processing

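For the 9 genes other than Maff, 0 passed in each of the 19 alternatives, and 168 of 171 single-gene values kept their direction and side of the threshold. The 3 others changed sign when a library was left out, with log2 fold changes from -0.0429 (without KO replicate 2) to 0.394 for Nqo1, and from -0.303 to 0.0548 for Gclc and from -0.112 to 0.0393 for Srxn1, both positive without WT replicate 2. The lowest adjusted p of any of them was 0.0688 (Mafk without WT replicate 2), and Mafk reached 0.744 at the highest. With the replicate block, or with any KO library left out, 0 of all genes passed, so the side of the threshold was fixed there. In the other alternatives 13 to 791 of all genes tested passed. Maff ran from -1.58 to -1.34.

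The number of genes called, 16 (11 lower and 5 higher), was 187 with DESeq2, 26 with limma-voom, 211 with the likelihood ratio test, 26 with RLE factors, 31 with upper-quartile factors, 152 without a filter, 49 with the alveolar type II covariate, 123 with total counts (62 lower, 61 higher) and 114 without mitochondrial genes (70 lower, 44 higher). With a library left out it ran from 0 (each KO library, 986 to 1112 genes at an unadjusted p under 0.05) to 791 (WT replicate 2). Total counts shifted the median of all genes to -0.13 and, without mitochondrial genes, to -0.18, and there the medians of the wider targets and of the partner list were also negative, at -0.16 each. Of the partner list, 1 gene, Nfe2l3, passed with DESeq2, the likelihood ratio test, both total counts and no filter, and 0 to 1 with a library left out. Of the wider targets 0 to 3 passed with a library left out. The causes were not tested.

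With the replicate number as a block, 0 genes passed (1776 at an unadjusted p under 0.05). Same-numbered libraries deviated from their group means with correlations of -0.081, 0.219 and 0.011, and not every library was closest to its own number, so the numbers are not taken to pair the samples. With 3 libraries in a group, no search for an outlying library was made.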
